A study of Mus musculus with 179 samples.

Results

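In the Eph receptor and ephrin family, 10 genes were followed across 7 sets of mouse brain libraries, each set being 1 brain region of 1 sex. These are the A-class receptors Epha3, Epha4, Epha5, Epha6 and Epha7, the B-class receptors Ephb1 and Ephb2, the A-class ligand Efna5 and the B-class ligands Efnb2 and Efnb3. The 10 genes were chosen by name with earlier results of the same libraries known, so their levels and differences are given as a description and support nothing by themselves. They were matched by symbol in the male ventral tegmental area table, which held 37810 genes with values, and by the same Ensembl identifiers in the others. A second Efna5 entry there, under an identifier absent from the other tables, was not used. All 10 were found among the 32421 genes of the table of prefrontal cortex, hippocampus and female libraries. The male nucleus accumbens table used here held 16239 genes and 5 of the 10, namely Epha3, Epha4, Ephb2, Efnb2 and Efnb3, and the other 5 were not analysed in that region.

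Eph receptors are the largest family of receptor tyrosine kinases, and their ligands, the ephrins, stay attached to the surface of the neighbouring cell. A-class ephrins are held by a lipid anchor and bind mainly EphA receptors, B-class ephrins cross the membrane and bind mainly EphB receptors, and EphA4 binds both classes. Contact sends a signal into both cells, and the system is known for steering axons in the developing brain and for shaping dendritic spines and synapses in the adult brain.

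Promoter sequence is shown for the genes on which the patterns below turn. Epha3 and Epha7 varied together between hippocampal libraries, and Efnb2 had the widest range of levels between regions. Each line gives the 250 bases before the RefSeq start on build GRCm38.p6, 5′ to 3′ on the strand of the gene. Capitals mark GGGCGG or TATAAA on either strand (CCGCCC or TTTATA where the motif lies on the other strand).
Epha3, chr16:63864176-63864425, minus strand: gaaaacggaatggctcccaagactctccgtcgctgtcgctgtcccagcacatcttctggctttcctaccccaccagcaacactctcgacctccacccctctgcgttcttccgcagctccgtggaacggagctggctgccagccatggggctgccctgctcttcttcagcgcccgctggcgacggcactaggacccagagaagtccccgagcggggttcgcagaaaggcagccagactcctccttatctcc
Epha7, chr4:28812881-28813130, plus strand: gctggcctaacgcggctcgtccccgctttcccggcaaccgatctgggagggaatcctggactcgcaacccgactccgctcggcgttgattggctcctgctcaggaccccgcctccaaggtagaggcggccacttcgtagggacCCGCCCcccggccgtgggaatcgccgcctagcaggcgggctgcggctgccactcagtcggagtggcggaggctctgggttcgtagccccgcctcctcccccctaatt
Efnb2, chr8:8661243-8661492, minus strand: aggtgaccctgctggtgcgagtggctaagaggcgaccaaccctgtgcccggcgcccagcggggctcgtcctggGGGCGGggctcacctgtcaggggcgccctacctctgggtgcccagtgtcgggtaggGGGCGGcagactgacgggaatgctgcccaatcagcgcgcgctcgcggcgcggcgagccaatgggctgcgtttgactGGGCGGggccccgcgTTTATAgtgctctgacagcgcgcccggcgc

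The RefSeq table held a start for 9 of the 10 genes. The Epha3 window held none of the motifs, the Epha7 window 1 GGGCGG and the Efnb2 window 3, of which 1 lies close to the single TATAAA. In the windows of the 9 genes (Epha7 has a pair of starts), GGGCGG was found for 6, against 32.7% of all 32851 windows of the same length. TATAAA was found for Efnb2 alone, against 12.4% of all windows, and neither CACGTG (6.0% of all windows) nor TGACGTCA (1.5%) was found in any of them. G and C made up between 54.0% of the Ephb1 window and 74.8% of the Efna5 window, against a median of 52.4% over all windows. A match is a description of the letters and not evidence of a bound factor.

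The libraries came from adult C57BL/6 mice (C57Bl6/j in most labels) that had been reared with early life stress (ELS) or in the standard way. As adults, stressed males underwent chronic social defeat and stressed females underwent sub-threshold variable stress (STVS). Tissue was taken 24 h after behavioural testing. Males and females were separate cohorts, so sex and cohort cannot be told apart. Male ventral tegmental area (VTA), home of the midbrain dopamine neurons, held 6 ELS defeat, 4 ELS control, 6 standard defeat and 4 standard control libraries, and the age at ELS is not stated for it. Male nucleus accumbens (NAc) held 6 defeat and 4 control libraries after ELS on postnatal days 10 to 20 (P10-20), 5 defeat and 4 control libraries after ELS on days 2 to 12 (P2-12), and 6 defeat and 4 control libraries after standard rearing. The male NAc titles give no replicate numbers, and those used below only name libraries in accession order. Each male VTA or male NAc library pooled punches of 3 mice. Male prefrontal cortex (PFC) and male hippocampus (HIP) held 6 libraries each of ELS defeat, ELS control, standard defeat and standard control mice. Female VTA, NAc and PFC each held 6 ELS STVS, 5 ELS control, 5 standard STVS and 6 standard control libraries. In male PFC, male HIP and the female regions 1 library is 1 mouse, and ELS ran on days 10 to 20. The labels do not state whether libraries of different regions came from the same mice, so regions of a cohort may share mice. In whole tissue, fewer cells of a type and less RNA per cell cannot be told apart.

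The depth, in reads recovered from the normalised values, was 13.6 to 23.9 M a library in male NAc and 19.2 to 42.7 M over the other sets of normalised reads. The depth of the male VTA libraries, given as reads per kilobase and per M reads (RPKM), is unknown. Region markers were highest in their own region: Slc6a3, the dopamine transporter, had a median of 32982 normalised reads in female VTA and 18.3 in female NAc, and Adora2a, an adenosine receptor of striatal neurons, 7910.2 in female NAc and 80.7 in female PFC. By marker genes, 14 libraries stood apart and are called doubted below. Of these, 3 of male PFC had Xist out of place, 6 of male HIP and 1 of female NAc had over 10000 normalised reads of Ttr, a gene of choroid plexus, and 4 female libraries had Xist or Ddx3y out of place. Among the last, the standard STVS replicate 3 libraries of NAc and PFC had 101 and 166 normalised reads of Xist, the X-inactivation RNA, against medians of 42172 and 28507 in those regions. The standard STVS replicate 3 library of female VTA was doubted for low Xist as well, but had 6152, against a median of 15463 there. Ddx3y, a gene of the Y chromosome, reached at most 21.9 in female NAc and 2.38 in female PFC. Its median in male PFC was 1949.

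Levels of different genes can be compared only per length, which the male VTA table allows. In its 4 standard control libraries Efnb3, a B-class ligand also bound by EphA4, was the most abundant of the 10 at 73.8 ± 8.28 RPKM (SD, n = 4). Ephb1 followed at 12.7 ± 0.303, Epha4 at 11.8 ± 0.899 and Epha5 at 11.2 ± 1.11 RPKM, and neighbours among these 3 overlapped, over a range of 9.81 to 13.0 in all. These were the receptors with the highest levels among the 10. Epha6 (4.09 ± 0.349 RPKM) and Efnb2 (3.76 ± 0.405) came next, with ranges of 3.57 to 4.30 and 3.28 to 4.21 that overlap. Epha7 averaged 2.75 ± 0.356 and Ephb2 2.44 ± 0.0804 RPKM, again with overlapping ranges. Efna5 averaged 1.14 ± 0.0553 and Epha3 0.745 ± 0.138 RPKM, the lowest of the 10. Of the 12 other family genes, Ephb6, a receptor without kinase activity, had the highest level at 15.2 ± 0.582 RPKM, and Epha1 the lowest at 0.218 ± 0.0403.

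**Figure D1:**
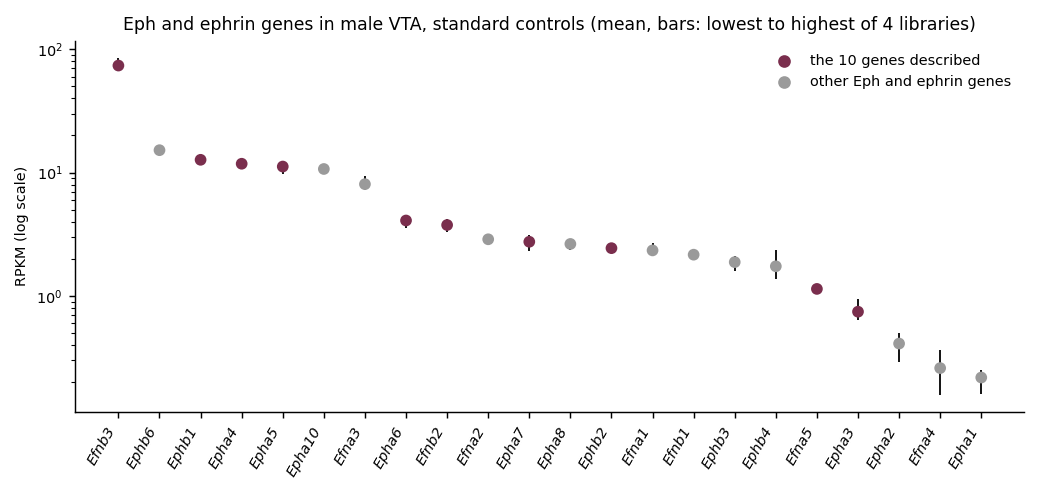
Mean RPKM (log scale) of the family genes in the 4 standard control libraries of male VTA, with bars from the lowest to the highest library; purple points are the 10 genes described and grey points the rest of the family. Efnb3 at 73.8 RPKM stands above the rest, and Epha3 at 0.745 is the lowest of the 10.

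Across regions, the B-class ligand Efnb2, which also guides blood vessel and interneuron growth, showed the widest range. It averaged 4189 ± 466 normalised reads in female NAc, 2611 ± 192 in female PFC, 2496 ± 184 in male PFC, 1882 ± 418 in male HIP and 505 ± 71.7 in female VTA (SD, n = 6 each, standard controls). The highest mean was 8.30 times the lowest, and the female NAc libraries, from 3292 to 4571, all lay above those of the other regions. In female NAc libraries Efnb2 varied with the summed level of 5 striatal neuron markers (Pearson r = 0.85 over 22 libraries after group means were removed), a description with no test in which the libraries share depth and dissection.

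Efnb3 had its highest mean where Efnb2 had its lowest, in VTA. It averaged 7579 ± 847 normalised reads in female VTA, 6305 ± 249 in female NAc and 5636 ± 370.1 in male HIP, but 2653 ± 765 in male PFC and 2596 ± 455 in female PFC (SD, n = 6 each). Female VTA, female NAc and male HIP were all higher than the PFC of the same sex, and the groups did not overlap. Between VTA libraries Efnb3 followed myelin: r with the summed level of 6 myelin genes was 0.94 in female VTA (22 libraries) and 0.81 in male VTA (20 libraries), with group means removed. It was 0.39 in female NAc, 0.27 in male PFC, 0.23 in female PFC, 0.09 in male NAc (5 genes measured) and -0.26 in male HIP. The part of myelin content in the regional order was not tested.

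The A-class receptors split by region. Epha4, which binds both ephrin classes, averaged 2127 ± 279 normalised reads in female VTA, against 7427 ± 529 in female PFC, and 6178 ± 681 in female NAc (SD, n = 6 each). Epha7, known for splice forms that lack the kinase, averaged 698 ± 87.4 in female VTA, against 2329 ± 191 in female PFC, and 2601 ± 266 in female NAc. Both genes were lowest in VTA, without overlap with any other region. Epha3 was low in VTA and NAc alike, at 100.5 ± 20.4 in female VTA and 124 ± 11.4 in female NAc, against 288 ± 17.6 in female PFC. Epha5 averaged 2173 ± 284 in female NAc, against 4202 ± 582 in female PFC, and neighbours in the order of its 5 means all overlapped. Epha6 stood out in male HIP alone, at 1362 ± 228, against 790.1 ± 69.5 in male PFC, while its 4 other means lay between 777 and 831.

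The B-class receptors went apart. Ephb1 averaged 2515 ± 351 normalised reads in female VTA and 2119 ± 85.0 in female NAc, against 1329 ± 77.4 in female PFC, and 733 ± 171 in male HIP, against 1367 ± 101 in male PFC (SD, n = 6 each). Ephb2, a receptor tied to NMDA receptors at synapses, was lowest in NAc: 240.0 ± 46.7 in female NAc, against 708 ± 66.0 in female PFC, with 919 ± 52.8 in female VTA. The A-class ligand Efna5 was highest in PFC, at 751 ± 35.4 in females and 818 ± 99.0 in males, and averaged 501 ± 55.1 in female VTA, 439.5 ± 26.1 in female NAc and 379 ± 91.2 in male HIP. Efna5 thus had no overlap between PFC and the other regions, and Ephb2 none between NAc and the others.

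**Figure D2:**
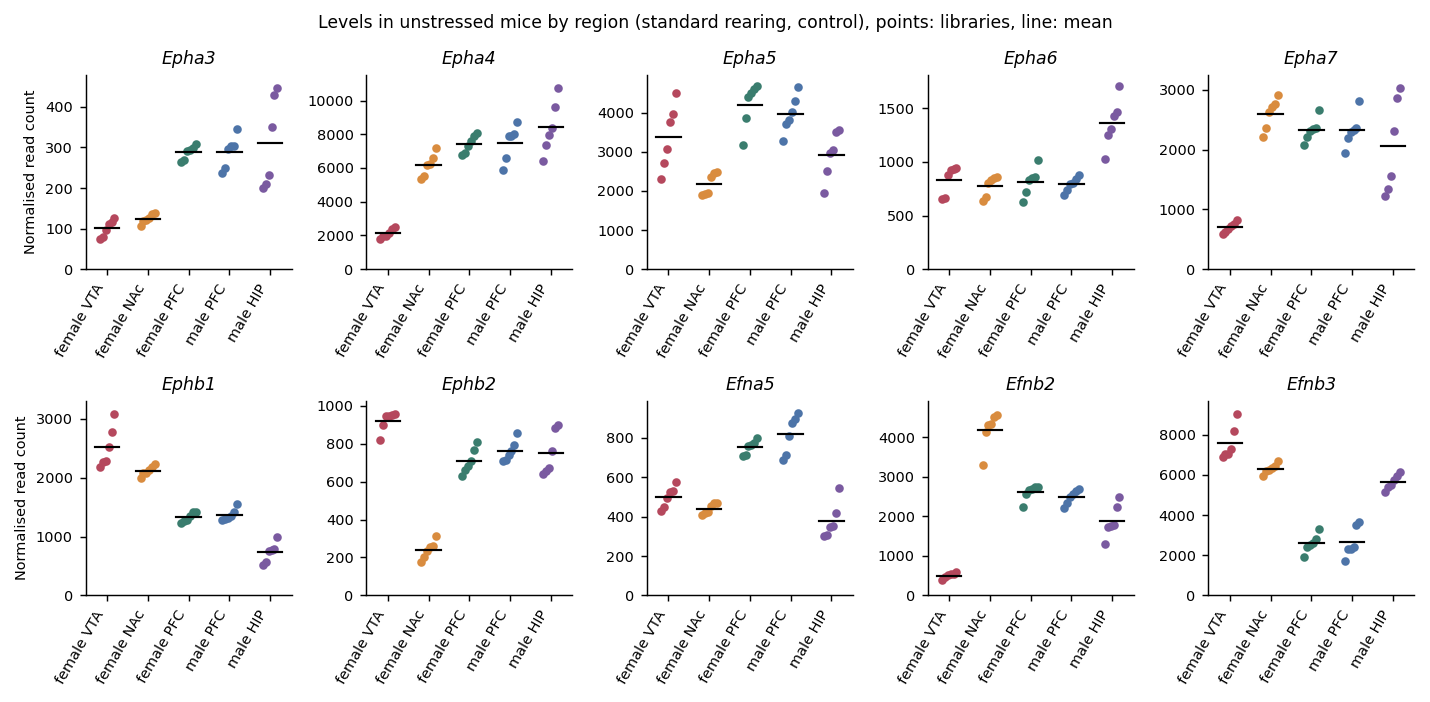
Normalised read counts of the 10 genes in the standard control libraries of 5 region and sex sets (points: 6 libraries each; line: mean); each panel has its own axis from 0. Efnb2 is highest in female NAc and lowest in female VTA, and Ephb2 is lowest in female NAc.

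Between female VTA and female PFC, the libraries of the 2 regions did not overlap for 8 of the 10 genes, against 61.0% of the 14000 genes of highest mean. The count was 7 of 10 between female NAc and female PFC, against 49.2% of genes, and 5 of 10 between female NAc and female VTA, against 63.8%. Between male HIP and male PFC it was 4 of 10, against 26.4% of genes. The median absolute log2 ratio was 1.21 for the 10 genes and 0.39 over all genes between female VTA and female PFC, 0.73 and 0.29 between female NAc and female PFC, 0.47 and 0.43 between female NAc and female VTA, and 0.42 and 0.19 between male HIP and male PFC. Between male and female PFC, of separate cohorts, none of the 10 was free of overlap, against 0.629% of genes, and the median absolute log2 ratio was 0.04 for the 10 genes and 0.05 over all genes. In male HIP, 3 of the 6 standard control libraries were doubted for choroid plexus RNA, and without the doubted libraries of both regions the log2 ratio of male HIP over male PFC became 0.59 for Epha3 and 0.31 for Epha7, against 0.11 and -0.18 with them.

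Differences with stress were asked in 31 comparisons of 2 groups and 8 interactions of ELS with adult stress, each set being fitted with limma over all genes kept. No gene of the table passed an adjusted p under 0.05 in any of the 39 contrasts, so 0% of genes were called, and edgeR on the recovered reads of the 6 sets that have them called none either. The smallest adjusted p of the 10 genes was 0.235 (limma), for Epha6 in male PFC. At an unadjusted p under 0.05, the 10 genes gave 21 of 275 tests (7.64%) in the comparisons of 2 groups, against 6.15% over all genes tested, and 8 of 70 tests (11.4%) in the interactions, against 6.42%. In the 27 comparisons of the 6 sets with reads, edgeR gave the 10 genes 20 of 235 tests at an unadjusted p under 0.05 (8.51%), against 6.53% over all genes, and limma 21 of 235 (8.94%), against 6.37%. The share in the comparisons of 2 groups lies close to the background. All p-values given for single genes are unadjusted unless said otherwise, and with no donor information beyond the labels they measure the spread between these libraries only.

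**Figure D3:**
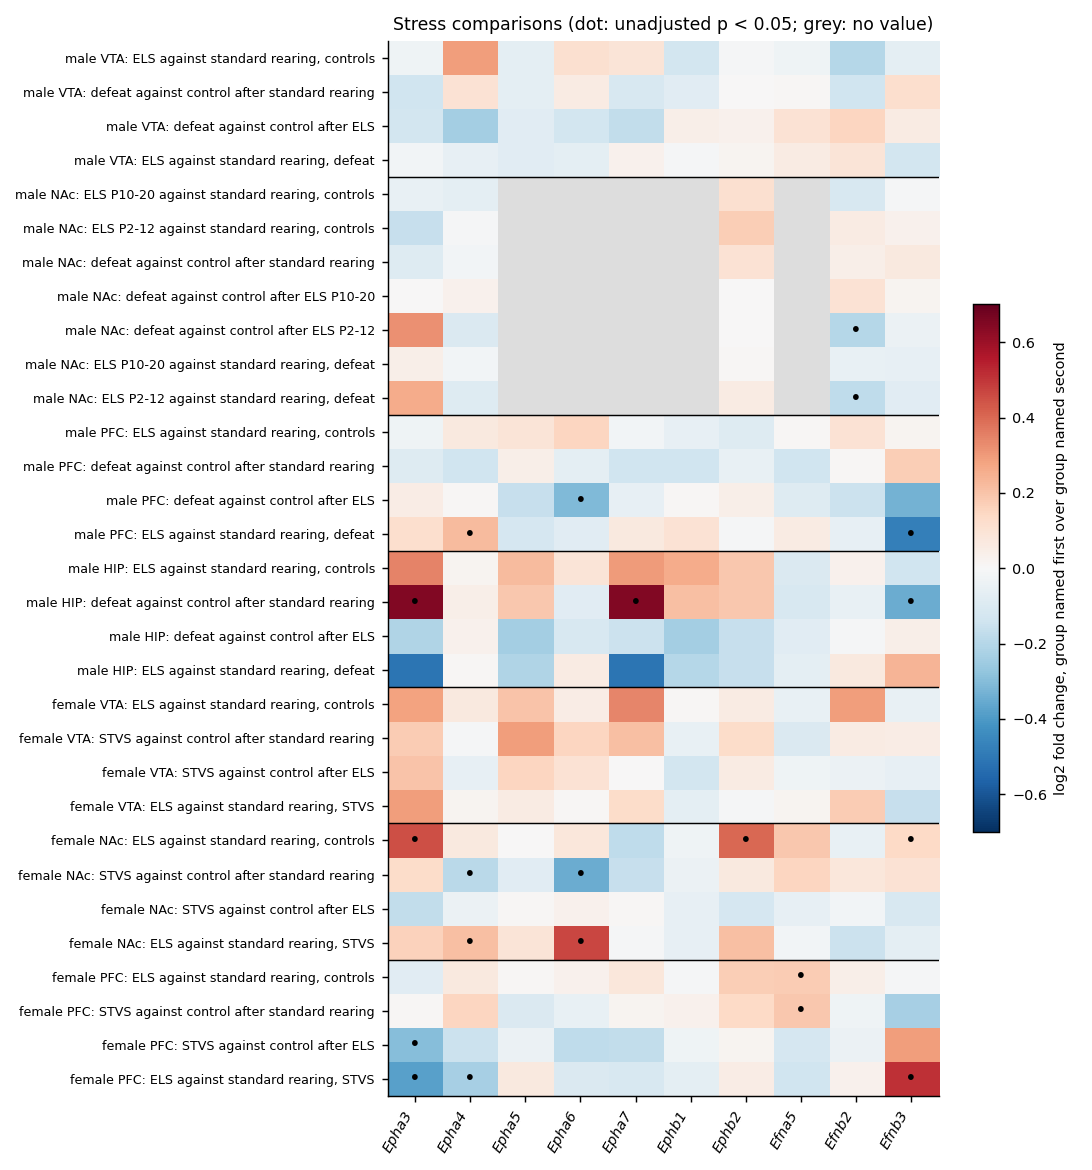
Log2 fold change (group named first over group named second) of each gene in the 31 comparisons of 2 groups, in red where higher in the first group and blue where lower. A dot marks an unadjusted p under 0.05 (21 of 275 tests); grey cells have no value. The dots are spread over 5 of the 7 sets, and none is in male or female VTA.

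In male VTA none of the 10 genes reached an unadjusted p under 0.05 (limma; edgeR needs reads and was not run on RPKM values). The member of smallest p was Efnb3 between ELS defeat and standard defeat mice. It averaged 72.9 ± 6.70 RPKM in ELS defeat libraries, against 80.0 ± 5.48 in standard defeat libraries (SD, n = 6 each), a log2 fold change of -0.13 ± 0.07 (SE; limma adjusted p = 0.873). The groups overlapped, and the myelin sum, which Efnb3 followed in this region, had a median of 2565 RPKM in ELS defeat and 2952 in standard defeat libraries. The part of myelin in the difference was not tested. Over all genes, unadjusted calls made up 2.03% for ELS control against standard control, 6.56% for standard defeat against standard control, 4.57% for ELS defeat against ELS control, 5.77% for ELS defeat against standard defeat and 5.46% for the interaction.

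In male NAc, Efnb2 was the gene of smallest p, in defeat mice of the earlier ELS window. It had 3461, 3598, 3726, 3859 and 4054 normalised reads in the 5 ELS P2-12 defeat libraries, against 4115, 4295, 4356 and 4389 in the 4 ELS P2-12 control libraries. Every defeat library lay below every control library. The log2 fold change was -0.20 ± 0.07 (SE; limma p = 0.00479, adjusted p = 0.536; exact permutation p = 0.0159, smallest possible 0.00794). Against the 6 standard defeat libraries, which ran from 3654 through a median of 4279 to 4574, the difference was -0.18 ± 0.06 (limma p = 0.00515, adjusted p = 0.752; exact permutation p = 0.0260), and these groups overlapped. The interaction of this ELS window with defeat was -0.24 ± 0.09 (limma adjusted p = 0.788), with an unadjusted p under 0.05 that went over it when the standard control replicate 1 library was left out (-0.17). Beside it, the summed level of 4 striatal markers ran from 66979 to 103718 in ELS P2-12 defeat libraries and from 93576 to 111276 in ELS P2-12 control libraries. Its r with Efnb2 was 0.52 over the 29 libraries, and its part in the difference was not tested. The other 4 genes had an unadjusted p of 0.05 or above in all 7 comparisons. Epha3, for one, averaged 169 ± 32.8 normalised reads in ELS P2-12 defeat (n = 5) and 133 ± 10.4 in ELS P2-12 control libraries (n = 4).

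Over all genes in male NAc, unadjusted calls made up 6.77% for ELS P10-20 control and 3.46% for ELS P2-12 control against standard control, and 3.39% for standard defeat against standard control. They made up 8.41% for ELS P10-20 defeat against its own control and 7.71% for ELS P2-12 defeat against its own control. Against standard defeat they made up 4.62% for ELS P10-20 defeat and 6.01% for ELS P2-12 defeat. The interactions gave 3.93% for the later window and 6.03% for the earlier one. Efnb2 was 1 of 5 genes tested in each of its contrasts.

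In male PFC, Epha6 was lower in defeat than in control mice after ELS, and Efnb3 and Epha4 differed between ELS and standard mice after defeat. Epha6 ran from 562 through a median of 703 to 984 normalised reads in ELS defeat libraries and from 641 through 870.4 to 1056 in ELS control libraries (n = 6 each). The difference was -0.31 ± 0.12 (log2, SE; limma p = 0.0146, adjusted p = 0.235; exact permutation p = 0.0779), so the permutation test did not pass 0.05. Efnb3 ran from 1576 through 2040.4 to 2708 in ELS defeat libraries and from 2334 through 2869 to 3332 in standard defeat libraries. The difference was -0.48 ± 0.19 (limma p = 0.0168, adjusted p = 0.507; exact permutation p = 0.0130), and the groups overlapped between 2334 and 2708. Epha4 ran from 7301 through 7799 to 8973 in ELS defeat libraries and from 5827 through 6929 to 7771 in standard defeat libraries. Its difference was 0.22 ± 0.09 (limma p = 0.0256, adjusted p = 0.529; exact permutation p = 0.0238). The limma p went over 0.05 without ELS defeat replicate 2 (0.18), standard defeat replicate 2 (0.17) or standard defeat replicate 3 (0.19). The doubted standard defeat replicate 4 library had the highest Epha4 (7771) and the lowest Efnb3 (2334) of its group. It also had 3853 normalised reads of Slc6a3, against a median of 5.03 in male PFC. Over the 24 libraries Efnb3 went against both Epha4 (r = -0.71) and the summed GABA neuron markers (r = -0.58), a description after removing group means. The GABA sum had medians of 16204 in ELS defeat and 15732 in standard defeat libraries. The myelin sum had medians of 41973 in ELS defeat and 57731 in standard defeat libraries, with r = 0.27 with Efnb3 and -0.46 with Epha4. The part of either in the differences was not tested.

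Over all genes in male PFC, unadjusted calls made up 2.22% for ELS control against standard control, 3.35% for standard defeat against standard control, 16.7% for ELS defeat against ELS control, 8.44% for ELS defeat against standard defeat and 5.94% for the interaction. Beside these shares stand 1 of 10 genes for ELS defeat against ELS control and 2 of 10 for ELS defeat against standard defeat. In this and the other sets, counts over 10 genes are coarse and were not tested against the share.

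In male HIP, Epha3 and Epha7 were higher and Efnb3 lower in defeat than in control mice after standard rearing, and the first pair of differences was smaller and missed an unadjusted 0.05 without libraries that carried choroid plexus RNA. Epha3 had 395, 429, 440.5, 465, 522 and 532 normalised reads in standard defeat libraries, against 199, 209, 232, 351, 428 and 447 in standard control libraries. Epha7 had 2399, 2532, 3263, 3269.9, 3452 and 3499 in standard defeat libraries, against 1229, 1335, 1567, 2306, 2868 and 3041 in standard control libraries. In both genes the 3 lowest controls were the same libraries, replicates 1, 4 and 6, and 2 of the other 3 lay within the range of the defeat libraries. The log2 fold change of Epha3 was 0.65 ± 0.26 (SE; limma p = 0.0202, adjusted p = 0.313; exact permutation p = 0.0195). That of Epha7 was 0.65 ± 0.26 (limma p = 0.0200, adjusted p = 0.313; exact permutation p = 0.0346).

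Those 3 control libraries had 171509.6, 250318 and 214563 normalised reads of Ttr and 515, 608 and 668 of Prox1, the transcription factor of dentate granule cells. The other 3 had 28.2 to 42.5 of Ttr and 3993 to 5193 of Prox1, and no standard defeat library had more than 163 of Ttr or less than 2344 of Prox1. Without the 6 doubted libraries of male HIP, the log2 fold change was 0.18 for Epha3 and 0.16 for Epha7, and none of the 10 genes passed an unadjusted 0.05 in the set (limma), against 3 with them. Leaving out replicate 1 alone gave 0.53 for Epha3 and 0.52 for Epha7, leaving out replicate 6 alone gave 0.55 for both, and each of these also took the limma p over 0.05. Over the 24 libraries r with the summed dentate granule cell markers was 0.75 for Epha3 and 0.87 for Epha7, and r with the summed choroid plexus markers was -0.72 and -0.79. The choroid plexus sum (5 of 5 markers measured) ran from 325 to 821 in standard defeat and from 429 to 274719 in standard control libraries. The dentate sum (3 of 3 measured) ran from 4569 to 11667 in standard defeat and from 1181 to 10447 in standard control libraries. The part of either tissue in the differences was not tested beyond leaving those libraries out.

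**Figure D4:**
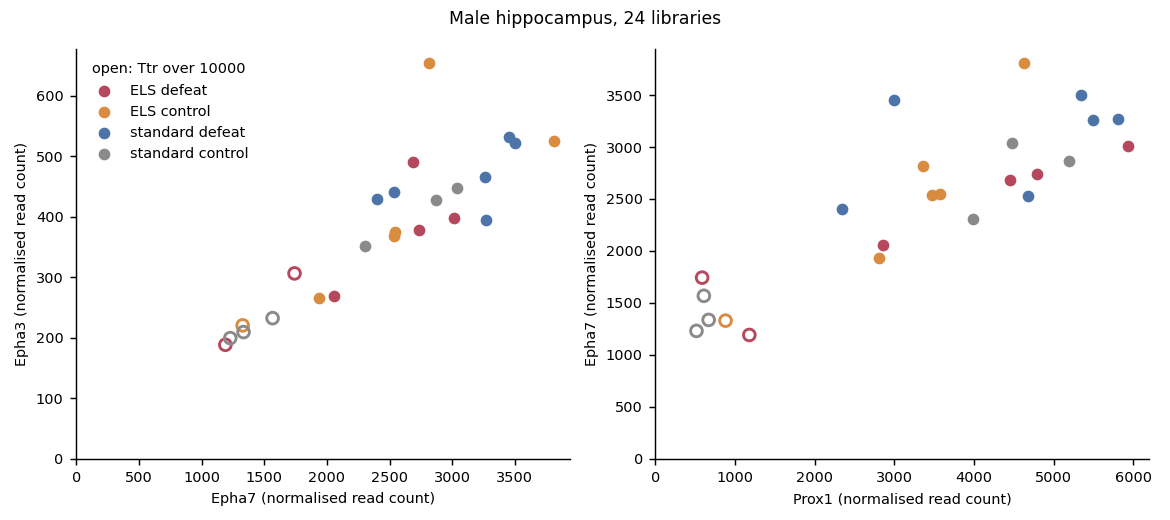
Normalised read counts in the 24 male HIP libraries, Epha3 against Epha7 on the left and Epha7 against the dentate granule cell marker Prox1 on the right, coloured by group; open circles are the 6 libraries with Ttr over 10000. The open circles sit at the low end of Epha3, Epha7 and Prox1, and 3 of them are standard controls.

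Efnb3 in male HIP ran from 2885 through 4724 to 5653 normalised reads in standard defeat libraries and from 5144 through 5612 to 6143 in standard control libraries. The log2 fold change was -0.35 ± 0.13 (SE; limma p = 0.0153, adjusted p = 0.309; exact permutation p = 0.0108). Without the doubted libraries it was -0.37, and without the standard defeat replicate 1 library, the lowest, -0.23, with a limma p over 0.05 in both cases. The interaction of ELS and defeat was -0.86 ± 0.37 for Epha3 (limma adjusted p = 0.383), -0.81 ± 0.37 for Epha7 (0.402), -0.35 ± 0.17 for Ephb2 (0.423) and 0.39 ± 0.19 for Efnb3 (0.423). These 4 had an unadjusted p under 0.05, and without the doubted libraries none did, with values of -0.33 for Epha3, -0.19 for Epha7, -0.16 for Ephb2 and 0.36 for Efnb3. Leaving out single libraries took them over 0.05 in 5 of 24 cases for Epha3, 14 of 24 for Epha7, 14 of 24 for Ephb2 and 16 of 24 for Efnb3. After ELS, defeat against control gave -0.21 ± 0.26 for Epha3 and -0.15 ± 0.26 for Epha7, with doubted libraries in both groups.

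Over all genes in male HIP, unadjusted calls made up 6.46% for ELS control against standard control, 14.4% for standard defeat against standard control, 7.88% for ELS defeat against ELS control, 2.89% for ELS defeat against standard defeat and 11.8% for the interaction. The 3 of 10 genes for standard defeat stand beside their 14.4%, and the 4 of 10 for the interaction beside their 11.8%, with the doubted libraries in. Epha3 and Epha7, which varied together (r = 0.90), are in both counts. Such counts are too coarse to set apart from a share.

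In female VTA none of the 10 genes reached an unadjusted p under 0.05 (limma, and edgeR likewise). Ephb2 had the smallest p, with 934 through 966 to 1228 normalised reads in standard STVS libraries (n = 5), against 819 through 944 to 956 in standard control libraries (n = 6). The difference was 0.13 ± 0.06 (log2, SE; limma adjusted p = 0.827), the groups overlapped, and the highest library, at 1228, stood apart from the rest of its group. Without the doubted libraries of this region 1 member test passed an unadjusted 0.05. Over all genes, unadjusted calls made up 4.22% for ELS control against standard control, 4.44% for standard STVS against standard control, 1.34% for ELS STVS against ELS control, 4.20% for ELS STVS against standard STVS and 2.37% for the interaction.

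In female NAc, Epha3 gave the smallest p of all the tests of the 10 genes. It had 155, 170.4, 173, 175 and 178 normalised reads in the 5 ELS control libraries, against 107 through a median of 123 to 139 in the 6 standard control libraries. All ELS control libraries lay above all standard control libraries. The log2 fold change was 0.45 ± 0.11 (SE; limma p = 0.000317, adjusted p = 0.425; exact permutation p = 0.00216, the smallest possible). It ran from 0.41 to 0.49 as each of the 11 libraries was left out, and was 0.52 without the 10 libraries whose adult label repeats their sex. Ephb2 had 273, 275, 305, 324 and 399 normalised reads in ELS control libraries, against 178 through 244 to 312 in standard control libraries. These groups overlapped, and the difference was 0.40 ± 0.13 (limma p = 0.00538, adjusted p = 0.425; exact permutation p = 0.0281). Efnb3 averaged 6954 ± 310.0 in ELS control libraries (n = 5) and 6305 ± 249 in standard control libraries (n = 6), a difference of 0.14 ± 0.06 (limma p = 0.0306, adjusted p = 0.430; exact permutation p = 0.00649). Its limma p went over 0.05 without ELS control replicate 3 (0.12), ELS control replicate 5 (0.12), standard control replicate 6 (0.13) or the 10 libraries (0.17). The 3 of 10 genes stand beside the 11.2% of all genes with an unadjusted p under 0.05 in that comparison. They are too few to set the count apart from the share.

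The medians of cortical tissue markers differed with rearing in the same region, though the groups overlapped and no test was run on them. The summed level of 4 glutamate neuron markers of cortex and hippocampus ran from 188 through 388 to 2031 normalised reads in ELS control libraries and from 150.1 through 3482 to 12072 in standard control libraries. Among STVS mice it ran from 195 through 279 to 5577 in ELS STVS libraries and from 319 through 8471 to 13952 in standard STVS libraries. Its r over the 22 libraries was 0.17 with Epha3, -0.37 with Ephb2 and -0.53 with Efnb3. The summed striatal markers had medians of 70234 in ELS control and 80723 in standard control libraries, and the groups overlapped. Their r was -0.25 with Epha3, -0.68 with Ephb2 and -0.03 with Efnb3. The part of cortical or striatal RNA in these differences was not tested.

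Epha6 and Epha4 in female NAc were lower in STVS than in control mice after standard rearing. Epha6 had 459, 528, 648, 688 and 740.2 normalised reads in standard STVS libraries, against 634 through a median of 819.7 to 857 in standard control libraries (n = 6). The groups overlapped, and the difference was -0.35 ± 0.14 (log2, SE; limma p = 0.0184, adjusted p = 0.730; exact permutation p = 0.0346). ELS STVS libraries ran from 645 through 901 to 995, which is 0.47 ± 0.14 over the same standard STVS libraries (limma p = 0.00263, adjusted p = 0.290; exact permutation p = 0.0303). Epha4 averaged 5433 ± 707 in standard STVS libraries (n = 5), against 6178 ± 681 in standard control libraries (n = 6), a difference of -0.19 ± 0.09 (limma p = 0.0419, adjusted p = 0.730; exact permutation p = 0.110). In ELS STVS libraries Epha4 averaged 6283 ± 564 (n = 6), which is 0.21 ± 0.09 over standard STVS libraries (limma p = 0.0218, adjusted p = 0.337; exact permutation p = 0.0606). Both permutation tests of Epha4 missed 0.05, and for both genes the pair of comparisons shares the standard STVS libraries.

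The cortical marker sum moved with the same groups, with medians of 279 in ELS STVS, 8471 in standard STVS and 3482 in standard control libraries, and the myelin sum had medians of 148756, 164165 and 146493 in that order of groups. Over the 22 libraries, with group means removed, Epha6 had r = 0.02 with the cortical sum, -0.52 with myelin and 0.56 with the GABA neuron markers. Epha4 had -0.24, -0.58 and 0.67 with the same sums. Their part in the differences was not tested.

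Without the 10 libraries whose adult label repeats their sex, the differences over or under standard STVS were -0.27 and 0.31 for Epha6 and -0.19 and 0.12 for Epha4, and none passed an unadjusted 0.05 (limma). Standard STVS replicate 5 mattered most among single libraries: without it the 4 differences were -0.26, 0.37, -0.12 and 0.15, and the second alone stayed under 0.05. Standard STVS replicate 2 likewise took the first and both Epha4 differences over 0.05 (-0.31, -0.16 and 0.19). Without any of the standard control replicates 1, 2, 3 and 4 (-0.14 to -0.19), or without the doubted libraries (-0.20), the first Epha4 difference went over 0.05, and without ELS STVS replicate 6 (0.19) the second did.

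**Figure D5:**
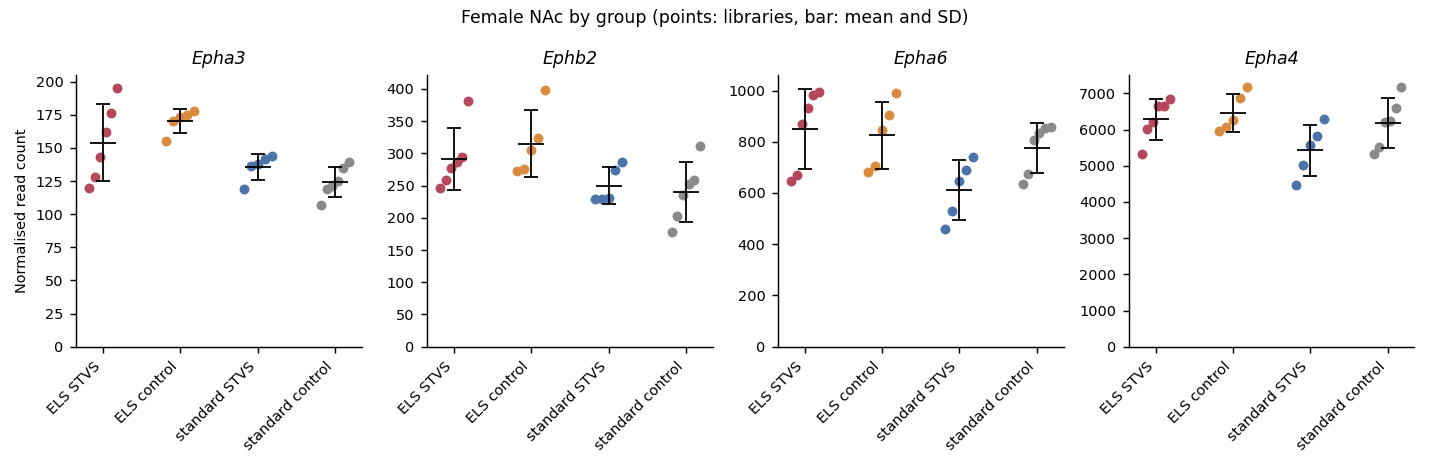
Normalised read counts of Epha3, Ephb2, Epha6 and Epha4 in the 22 female NAc libraries by group (points: libraries; bar: mean and SD). The 5 ELS control libraries of Epha3, from 155 to 178, lie above the 6 standard control libraries, from 107 to 139; the ELS STVS libraries, from 119.7 to 195, overlap with the standard STVS libraries, from 119 to 144.

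The interaction of ELS and STVS in female NAc was -0.21 ± 0.09 for Efnb3 (log2, SE; limma adjusted p = 0.617), and no other of the 10 genes had an unadjusted interaction p under 0.05. Over all genes in female NAc, unadjusted calls made up 6.16% for standard STVS against standard control, 2.20% for ELS STVS against ELS control, 13.3% for ELS STVS against standard STVS and 7.94% for the interaction. The 2 of 10 genes stand beside these 6.16% and 13.3%, and 1 of 10 beside the 7.94%, with too few genes to set such counts apart from a share.

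In female PFC, Efna5 was higher with either stress alone. It ran from 719.9 through 858 to 962 normalised reads in ELS control libraries (n = 5) and from 756 through 829.7 to 981 in standard STVS libraries (n = 5), against 705 through 761 to 796 in standard control libraries (n = 6). The difference was 0.18 ± 0.07 for ELS control (log2, SE; limma p = 0.0271, adjusted p = 1.00; exact permutation p = 0.0325). It was 0.19 ± 0.07 for standard STVS (limma p = 0.0185, adjusted p = 0.861; exact permutation p = 0.0216). Both comparisons share the standard control libraries, and the groups overlapped in both. The first went over an unadjusted 0.05 without ELS control replicate 1 (0.16), ELS control replicate 5 (0.13), or standard control replicate 5 or 6 (0.16 each). The second did so without standard STVS replicate 3, which is doubted (0.14), or replicate 5 (0.16). With both stresses Efna5 averaged 781 ± 72.8 (n = 6), and the interaction was -0.31 ± 0.11 (limma adjusted p = 0.584), with an unadjusted p under 0.05.

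Among STVS mice of female PFC, ELS libraries averaged more Efnb3 and less Epha4 and Epha3. Efnb3 ran from 2306 through 3023 to 4593 normalised reads in ELS STVS libraries (n = 6) and from 1586 through 2154 to 3043 in standard STVS libraries (n = 5), a difference of 0.51 ± 0.22 (limma p = 0.0286, adjusted p = 0.431; exact permutation p = 0.0281). Epha4 ran from 6395 through 7099 to 7399.9 in ELS STVS libraries and from 7228 through 8116 to 9596 in standard STVS libraries, a difference of -0.23 ± 0.09 (limma p = 0.0127, adjusted p = 0.411; exact permutation p = 0.0108). Epha3 ran from 187 through 208 to 291 in ELS STVS libraries and from 229 through 259.7 to 418 in standard STVS libraries, a difference of -0.38 ± 0.13 (limma p = 0.00861, adjusted p = 0.410; exact permutation p = 0.0455). The groups overlapped in all 3 genes, and the doubted standard STVS replicate 3 library was the extreme one in each: lowest for Efnb3, at 1586, and highest for Epha4 and Epha3, at 9596 and 418. Without it the differences were 0.40, -0.17 and -0.25, none under an unadjusted 0.05 (limma), and 2 tests of the 10 genes passed it in the 4 comparisons of the set, against 6 with it. Beside these differences, the myelin sum ran from 37529.7 through 59407 to 119910.1 in ELS STVS libraries and from 36492 through 43401 to 62976 in standard STVS libraries, and its highest library, ELS STVS replicate 2, was also the highest in Efnb3. The r of the myelin sum over the 22 libraries was 0.23 with Efnb3, -0.16 with Epha4 and -0.60 with Epha3. The GABA neuron sum had medians of 16088 in ELS STVS and 16991 in standard STVS libraries. Its r was -0.80 with Efnb3, 0.64 with Epha4 and 0.28 with Epha3. The summed dopamine neuron markers had medians of 848 and 717 in that order of groups. Their r was 0.76 with Efnb3, -0.64 with Epha4 and -0.70 with Epha3. The groups overlapped in all these sums, and their part was not tested. Efnb3 also went over 0.05 without ELS STVS replicate 2 (0.40) or standard STVS replicate 1 (0.49).

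Epha3 also differed between ELS STVS and ELS control libraries of female PFC, at 224 ± 41.0 (n = 6), against 275 ± 48.1 (n = 5), which is -0.30 ± 0.13 on the log2 scale (limma p = 0.0351, adjusted p = 0.999; exact permutation p = 0.0779). It went over an unadjusted 0.05 in 6 of 11 cases as single libraries were left out (-0.38 to -0.21). The interaction was -0.30 ± 0.12 for Epha4 (limma adjusted p = 0.584), with an unadjusted p under 0.05 that went over it without standard STVS replicate 3 (-0.24). Over all genes in female PFC, unadjusted calls made up 3.29% for ELS control against standard control, 5.04% for standard STVS against standard control, 3.25% for ELS STVS against ELS control, 10.6% for ELS STVS against standard STVS and 7.91% for the interaction. The 3 of 10 genes for ELS STVS against standard STVS and the 2 of 10 for the interaction stand beside these shares, and each other comparison of the region had 1 of 10. Counts over 10 genes are too coarse to set apart from a share.

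Efnb3 ran against Epha3 and Epha4 between libraries too. Over the 114 libraries of PFC, HIP and the female regions, with group means removed, r was -0.44 between Efnb3 and Epha3 and -0.40 between Efnb3 and Epha4. By set, Efnb3 with Epha3 ran from -0.65 in female PFC to -0.20 in female NAc. Efnb3 with Epha4 ran from -0.71 in male PFC and female PFC to -0.07 in male HIP. The highest of the 45 pairs was Epha3 with Epha7 (r = 0.68, Spearman rho 0.58), which was 0.90 in male HIP, 0.71 in female VTA and 0.41 in male PFC, but 0.04 in female NAc and -0.04 in female PFC. Epha4 with Epha6 followed at 0.56, with 0.84 in female NAc, 0.75 in male HIP, 0.40 in male PFC, 0.33 in female PFC and 0.26 in female VTA. Without the doubted libraries Epha3 with Epha7 gave 0.49 and Epha4 with Epha6 gave 0.63. The pairs share library, depth and dissection, libraries of different regions may share mice, and the values carry no test.

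The 3 genes most like each of the 10 were named by the highest r over the same 114 libraries. For the A-class receptors they were Btbd3 (0.69), Epha7 and Pam for Epha3, Arhgef17 (0.76), Pja2 and Nckap1 for Epha4, Slc35f1 (0.76), Odz3 and Ipcef1 for Epha5, Akap11 (0.79), Usp9x and Grin2b for Epha6, and Dgkh (0.77), Nedd4l and Npnt for Epha7. For the B-class receptors they were Fads6 (0.76), Cdk19 and Scn4b for Ephb1, and Tbc1d1 (0.57), Dscam and Evi5l for Ephb2. For the ligands they were Arnt2 (0.61), Met and Pcdh11x for Efna5, Cntnap3 (0.74), Odz2 and Cadm1 for Efnb2, and Rftn1 (0.82), Fam126a and Col23a1 for Efnb3. Among the first genes, r was highest for Efnb3 and lowest for Ephb2.

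The rest of the family and the signalling partners were read from lists chosen by name. Of the 12 other family genes between 6 and 10 were tested in a set. Of the 28 partners of the receptors and ligands, 12 were tested in male NAc and 28 elsewhere. None passed an adjusted p under 0.05 (limma). In the comparisons of 2 groups the family gave 17 of 278 tests (6.12%) at an unadjusted p under 0.05, 8 higher and 9 lower, and the partners 37 of 756 (4.89%), 19 higher and 18 lower. Both shares lie at or below the 6.15% over all genes. Arhgef15, an exchange factor that EphB2 acts on, had the smallest p of the partners, with 812 ± 36.9 normalised reads in ELS STVS (n = 6) and 697 ± 73.7 in standard STVS libraries of female PFC (n = 5), a difference of 0.23 ± 0.06 (limma adjusted p = 0.386). Ephb3 had the smallest p of the family, with 281 ± 10.2 normalised reads in ELS STVS (n = 6) and 335 ± 28.0 in standard STVS libraries of female NAc (n = 5), a difference of -0.25 ± 0.07 (limma adjusted p = 0.290), and there the groups did not overlap.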

How the data were processed

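Per the labels' protocols, poly-A RNA went into unstranded TruSeq libraries. A gene and its antisense partner therefore cannot be told apart. Male NAc and the remaining PFC, HIP and female libraries were deposited by the authors as a normalised signal, in which each library's gene counts are divided by 1 factor. The submitters' processing notes list HISAT, HTSeq and mm10 for these, with no versions. Male VTA was deposited by the authors in RPKM, and its notes list TopHat2, HTSeq, Bowtie2 2.2.0, SAMtools 0.1.19, MACS2 2.1.1, mm9 and mm10 without tying them to RNA or ChIP. The 3 tables were normalised separately, and tests stayed within a table. Among the normalised values, 100% were whole multiples of 1 read (tolerance 0.001), which gave the reads for edgeR.

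Groups came from titles and characteristics. For 10 female NAc libraries the adult label repeats the sex, and the title code was used. No pair of libraries within a group agreed within sampling noise (lowest chi-square per degree of freedom 2.96). Each of the 7 sets had 1 fit by limma 3.58.1 in R 4.3.3 (trended, robust) of log2(value + 1) on its groups, over the 14000 genes of highest mean or, in male VTA, the 14586 genes with a mean of at least 0.5 RPKM. Fold changes on this scale understate changes of low genes. Benjamini-Hochberg adjustment ran over all genes of a contrast, and two-sided exact permutation over libraries was used for single genes. Functions were tested on simulated data.

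The members, lists and alternatives were chosen with earlier results of these data known. Doubted libraries were males with over 200 normalised reads of Xist, females with over 50 of Ddx3y or under 0.5 of the regional Xist median, and any library with over 10000 of Ttr. Named were all 10 genes, each of their tests at an unadjusted p under 0.05 or the smallest p of a set without one, the smallest p of each other list, and the 3 genes most like each member. Alternatives were no filter, quantile normalisation, another pseudocount, edgeR 4.0.16, the replicate number as a block, exact permutation, and leaving out doubted libraries, those 10 libraries or single libraries.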

Additional observations from a re-analysis of the deposited data

Results flagged for a closer look

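In 14 of 270 groups of 4 to 10 libraries (5.19%), 1 library stood apart from the rest of its group by Dixon's criterion. Chance gives about 1 in 20 such groups, and none of the 13 libraries concerned was among the doubted ones.

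In male VTA, in RPKM, Epha3 had 1.02 in standard defeat replicate 6, Epha4 had 27.5 in ELS control replicate 2 against 11.3 to 12.3 in the other libraries of its group, and Efnb2 had 6.25 in ELS defeat replicate 1. Epha6 had a low 3.57 in standard control replicate 3 and Efna5 a low 1.06 in standard control replicate 1. In male NAc, in normalised reads, Epha3 had 228 in ELS P10-20 defeat replicate 6 and 149 in ELS P2-12 control replicate 2. In male HIP, Epha4 had 14021 in standard defeat replicate 4, against 6787 to 8442 in the other 5.

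In female VTA, standard STVS replicate 4 had a low Ephb1 of 1894 and a high Ephb2 of 1228. In female NAc, Ephb2 had 382 in ELS STVS replicate 2 and Efnb2 a low 3292 in standard control replicate 2. In female PFC, Epha5 had 4467 in standard STVS replicate 4 and Efnb2 a low 2243 in standard control replicate 6.

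For Efnb3 the mean of ELS STVS libraries lay below that of standard STVS libraries in female NAc (log2 ratio of means -0.08) and above it in female PFC (0.51), with all 6 ELS STVS libraries on that side of the standard STVS mean in each region. The NAc side turns on 1 standard STVS library, and the PFC side keeps its direction but is smaller without 1. In NAc, replicate 5 had 8253 normalised reads, and without it the means were 6455 in ELS STVS and 6456 in standard STVS libraries, with 3 of 6 ELS STVS libraries below. With it, the medians were 6453 in ELS STVS and 6381 in standard STVS libraries, the groups overlapped and the limma adjusted p was 0.612. In PFC, the ratio was 0.41 without the doubted replicate 3, 1 of 6 ELS STVS libraries then lay below the standard STVS mean, and the limma p went over an unadjusted 0.05. The difference between the regions was not tested.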

How the results depend on the processing

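No member passed an adjusted p under 0.05 in any of 720 refits of the 39 contrasts, while 5 refits called some gene. Of 613 alternatives to the 29 member tests at an unadjusted p under 0.05, 493 stayed under it, 120 did not and 0 changed sign; leaving out doubted libraries took 13 of 26 over it, and leaving out the 10 female NAc libraries whose adult label repeats the sex 6 of 8. Counts of members under 0.05 per set moved as follows, and the cause was not tested. As each library was left out in turn, they ran from 0 to 1 in male VTA, 2 to 4 in male NAc, 2 to 6 in male PFC, 1 to 6 in male HIP, 0 to 2 in female VTA, 4 to 9 in female NAc and 2 to 9 in female PFC. The count was 0 in male HIP, 1 in female VTA and 2 in female PFC without doubted libraries, 1 in female VTA with no filter, and 4 in female NAc without the 10 libraries. Without doubted libraries the log2 ratio of male HIP over male PFC was 0.59 for Epha3, 0.31 for Epha7 and 0.17 for Ephb2, and scaled to total reads that of female NAc over female PFC was 0.76 for Ephb1 and -0.68 for Efna5. For Epha3 and Epha7, r was 0.49 without doubted libraries, 0.90 in male HIP, 0.04 in female NAc and -0.04 in female PFC. For Epha4 and Epha6 it ran from 0.26 in female VTA to 0.84 in female NAc. For Epha7 and Ephb1, 0.45 in all, it was 0.26 as Spearman's rho, 0.20 without doubted libraries and -0.33 in female VTA.

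With the replicate number as a block, the count was 1 in male VTA, and within 1.5 times elsewhere. Same-numbered libraries did not all deviate together in any set (lowest r of a pair -0.86 in male HIP to -0.22 in female PFC, pairs past the limit for pairing from 8 of 26 in male VTA to 18 of 31 in female VTA), so the numbers were not used as pairs. Even so, the median r of same-numbered pairs lay above that of other pairs in each set, from 0.02 and 0.00 in male VTA to 0.17 and -0.04 in female VTA. In female PFC, 12 of 22 libraries were most like a library of their own number. Male NAc titles carry no such numbers, so it had no block. Depth limits Epha3 most, at 100.5 normalised reads in female VTA, and the male VTA depth is unknown.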
